A study of Mus musculus with 18 samples.

Results

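MicroRNA signal in the liver was compared between mice given benzo(a)pyrene (BaP) at 75 mg/kg/day and mice given 25 mg/kg/day, the highest and the lowest dose of the study. BaP is a polycyclic aromatic hydrocarbon that liver enzymes convert to reactive metabolites that bind DNA. The animals were male Muta™Mouse (transgenic mouse strain 40.6), whose genome holds a lacZ transgene from bacteria in which mutations can be counted, and the labels give their age as 25 weeks. Both groups received daily BaP in olive oil by gavage over 28 days, and a piece of liver was taken 3 days after the last dose. Arrays were chosen by the dose in their labels, which gave 5 arrays at 75 and 5 at 25 mg/kg/day, 10 of the 18 arrays of the series. The difference between these doses used no vehicle array, although the 3 vehicle and 5 arrays at 50 mg/kg/day entered the model to estimate the spread and the shifts between slides. All results are for 1 time point and for bulk liver, in which fewer cells of a type and less RNA per cell cannot be told apart.

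MicroRNAs are short RNAs that are cut from hairpin precursors and guide the silencing of mRNAs that pair with the seed, bases 2 to 8 from the 5′ end of the miRNA. miR-34a is transcribed under the control of p53, the transcription factor that responds to DNA damage, and represses cell cycle and survival genes. The let-7 family is abundant in differentiated tissue such as liver and represses growth genes, among them Ras genes and Hmga2. Mature sequences were available from RefSeq (GRCm38.p6) for 61 of the 68 mouse miRNAs tested. Array names that state no arm were matched to the usual guide strand from general knowledge. The sequences below are those of the miRNAs on which the comparison turned, with some relatives of the same seed. Capitals mark the seed.
miR-34a: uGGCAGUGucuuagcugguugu
miR-34b-5p: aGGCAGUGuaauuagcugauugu
let-7c: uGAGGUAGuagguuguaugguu
let-7b: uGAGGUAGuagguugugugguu
let-7a: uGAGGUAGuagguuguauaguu
miR-15b: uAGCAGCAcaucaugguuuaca
miR-15a: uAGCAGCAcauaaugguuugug
miR-16: uAGCAGCAcguaaauauuggcg
miR-365: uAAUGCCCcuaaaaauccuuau
miR-10a: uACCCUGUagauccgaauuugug
miR-199a-3p: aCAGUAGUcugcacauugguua
miR-101b: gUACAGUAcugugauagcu
miR-27b: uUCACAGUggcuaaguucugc
miR-27a: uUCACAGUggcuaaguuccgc
Counted from the 5′ end, let-7b differed from let-7c only at A17G and let-7a only at G19A. miR-15a differed from miR-15b at 4 bases and miR-16 at 8, and miR-34a shares its seed with miR-34b-5p but diverges from it along the 3′ part.

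The 10 arrays lay on 3 slides, which did not hold the doses evenly. Slide 1 held 2 arrays of each dose, slide 2 held 2 at 75 and none at 25 mg/kg/day, and slide 3 held 3 at 25 and 1 at 75 mg/kg/day. Between 57 and 144 names were detected per array at 25 mg/kg/day (96.8 ± 35.5, SD, n = 5) and between 82 and 106 at 75 mg/kg/day (93.2 ± 8.56, SD, n = 5). The detected names thus spread more widely at 25 mg/kg/day, with both the highest array (replicate 1, slide 1) and the lowest (replicate 4, slide 3) in that group. For the 68 mouse miRNAs the median size of the shift between slides 3 and 1 was 0.21 on the log2 scale and that of the dose difference 0.054, and 54 of the 68 had a larger slide shift than dose difference. Slide was therefore kept in the model for each fitted difference below unless stated. Signals of single arrays and the means, SDs, ranges and sums of signals are not adjusted for slide.

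At 75 mg/kg/day, miR-34a rose and let-7c fell relative to 25 mg/kg/day, and no other miRNA passed the threshold, an adjusted P of 0.05 (limma, Benjamini-Hochberg over 69 miRNAs). These 2 were 2.9% of the 69 miRNAs tested, with 1 higher (1.45%) and 1 lower (1.45%). miR-34a was the only one that also differed by more than 1.5-fold. let-7c differed by 1.14-fold, and it passed in 5 of 16 alternative fits, against 15 of 15 for miR-34a. Of the 68 mouse miRNAs, 66 (97.1%) differed by less than 1.2-fold, and the median log2 difference was -0.034. These values are for signal without background subtraction. With Agilent's total gene signal, an alternative, the median was 0.17 and many differences were larger. Examples are 0.94 for miR-144, 0.89 for miR-98 and for miR-331-3p, and 0.73 for miR-33. The count under 1.2-fold therefore does not hold with that signal.

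**Figure D1:**
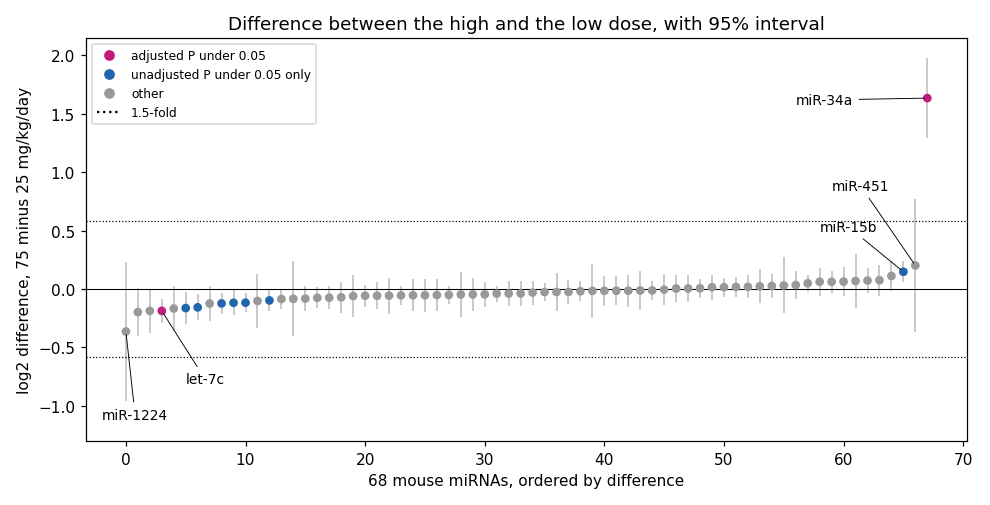
The log2 difference between 75 and 25 mg/kg/day (vertical axis, with its 95% interval) of the 68 mouse miRNAs in order of their difference (horizontal axis); colours mark the adjusted and unadjusted P under 0.05. miR-34a lies at 1.63 and the next highest estimate, that of miR-451, at 0.20 with an interval that spans 0.

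The mature miR-34a strand, printed above, lies at chr4:150068473-150068494 on the plus strand (GRCm38.p6, Mir34a). Its normalised log2 signal at 25 mg/kg/day was 6.00 and 5.79 on slide 1 and 6.43, 6.90 and 6.54 on slide 3. At 75 mg/kg/day it was 7.89 and 8.03 on slide 1, 7.60 and 7.67 on slide 2 and 7.89 on slide 3. All 5 arrays at 75 lay above all 5 at 25 mg/kg/day, and miR-34a was the only one of the 69 miRNAs (1.45%) whose groups did not overlap. The slide-adjusted log2 difference was 1.63 ± 0.16 (SE, 95% interval 1.29 to 1.97), a 3.1-fold higher signal (limma adjusted P = 2.2e-06). An exact two-sided permutation test of the group means over the 10 arrays gave P = 0.00794, the smallest that 252 arrangements allow (adjusted over the 2 miRNAs tested this way, 0.0159). It exchanged arrays across slides, which did not hold the doses evenly. The 2 miRNAs were chosen with earlier results of these data known, and the adjustment does not cover that choice. When arrays were exchanged only within their slide, this exact permutation test gave P = 0.0417, again its smallest (24 arrangements). The arrays of slide 2, which held none at 25 mg/kg/day, did not enter the test within slides.

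Within slide 1 the difference in miR-34a signal was 2.06, and within slide 3 it was 1.27. The arrays at 25 mg/kg/day were higher on slide 3 than on slide 1, while the slide 3 array at 75 mg/kg/day equalled one of those on slide 1. At 25 mg/kg/day the lowest probe signal well above background was also higher on slide 3. It was 5.91 and 5.79 on the slide 1 arrays and 6.16, 6.45 and 6.26 on those of slide 3. The part of this floor in the slide gap of miR-34a was not tested. Whether the dose difference itself differed between slides was not tested. The spread between arrays, not adjusted for slide, was larger at 25 (SD 0.44, n = 5) than at 75 mg/kg/day (SD 0.18, n = 5). At 25 mg/kg/day the 2 arrays with the most names detected, 144 and 119, had the lowest miR-34a signal, and the array with the fewest, 57, had the highest. The part of this in the result was not tested. Without the arrays of 144 and 57 names, the difference was 1.70 ± 0.16 (SE), and leaving out any single array of the 18 kept it between 1.51 and 1.75.

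Each of the 2 probes of miR-34a was higher at 75 mg/kg/day. Probe A_54_P2498 was well above background on 1 of 5 arrays at 25 and on 5 of 5 at 75 mg/kg/day, with a log2 difference of 1.31 ± 0.16 (SE) between the measured signals, most of which were near background at 25 mg/kg/day. Probe A_54_P2499 was well above background on 4 of 5 arrays at 25 and on 5 of 5 at 75 mg/kg/day, with a log2 difference of 1.96 ± 0.17 (SE). Signal was used without background subtraction. With Agilent's processed signal, which is background-subtracted and was scaled differently, the log2 difference of miR-34a was 3.06 ± 0.28 (SE), and with its total gene signal 3.47 ± 0.37 (SE); the cause of the larger values was not tested. For context, the mean log2 signal was 5.92 ± 0.29 (SD, n = 3) in vehicle and 6.92 ± 0.18 (SD, n = 5) at 50 mg/kg/day. The 4 other names of the miR-34 family, miR-34c, miR-34c* and both strands of miR-34b, had 0 probes well above background on these 10 arrays.

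**Figure D2:**
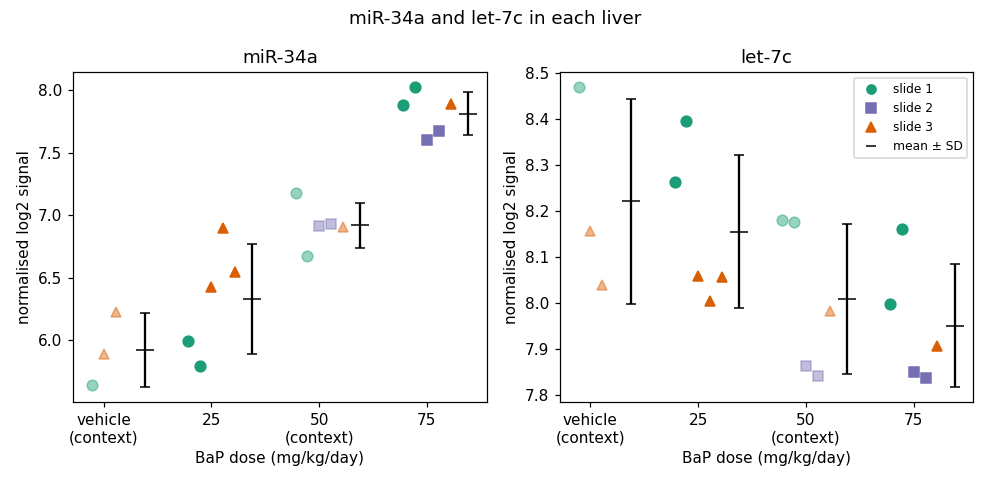
Normalised log2 signal (vertical axes) of miR-34a and let-7c in each liver by BaP dose, with the slide as colour and shape and the mean ± SD as bars; vehicle and 50 mg/kg/day are paler and only context. For miR-34a the points at 75 mg/kg/day (7.60 to 8.03) lie above all at 25 (5.79 to 6.90), whereas for let-7c the groups overlap and the slides are offset from each other.

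let-7c was the only miRNA that passed the threshold with a lower signal at 75 mg/kg/day. Its log2 signal at 25 mg/kg/day was 8.26 and 8.40 on slide 1 and 8.06, 8.00 and 8.06 on slide 3. At 75 mg/kg/day it was 8.00 and 8.16 on slide 1, 7.85 and 7.84 on slide 2 and 7.91 on slide 3. The groups overlapped, since a slide 1 array at 75 lay above the slide 3 arrays at 25 mg/kg/day, but each of the 3 arrays at 75 that shared a slide with the low dose lay below every array at 25 on that slide. The slide-adjusted log2 difference was -0.19 ± 0.048 (SE, 95% interval -0.29 to -0.086), a 1.14-fold lower signal (limma adjusted P = 0.0449), with -0.25 within slide 1 and -0.13 within slide 3. The exact two-sided permutation test gave P = 0.0714 over the 10 arrays (also 0.0714 after adjustment) and P = 0.0417 within slides. The latter is the smallest that 24 arrangements allow, and neither takes account of how let-7c was chosen. The 2 probes, A_54_P1291 and A_54_P1292, gave -0.15 ± 0.057 and -0.22 ± 0.052 (SE).

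The call of let-7c depended on the processing, although the sign of its difference did not. It passed the threshold in 5 of 16 alternative fits and, when single arrays were left out in turn, in 6 of 18. Quantile normalisation gave an adjusted P of 0.239, centring on array medians 0.996, and the model without slide 0.826. With each of these 3 settings 1 miRNA was called higher and 0 lower, and with the total gene signal 3 were called higher and 0 lower. The call was lost in the 12 fits without replicate 2, 3 or 5 at 25, replicate 1, 2, 3 or 4 at 50, replicate 1, 2, 3 or 5 at 75 mg/kg/day or vehicle replicate 2, with adjusted P from 0.0560 to 0.182 and differences from -0.21 to -0.14. Without replicate 1 at 25 mg/kg/day, the array with the most names detected, 7 miRNAs passed: let-7c, let-7d, let-7e, miR-10a and miR-365 lower, and miR-29c and miR-34a higher.

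let-7c belongs to the let-7 and miR-98 seed family, of which 9 of 9 members were tested. In this family 0 rose, 1 fell and 8 did not pass the threshold, beside 1 risen (1.45%) and 1 fallen (1.45%) of all 69 tested. Estimates were below 0 for 7 of the 9, beside 46 of all 68 mouse miRNAs. They ran from -0.19 to 0.031, with a median of -0.051 beside -0.034 for all mouse miRNAs. let-7b, which differs from let-7c at 1 base, was the second lowest of the family, at -0.16 ± 0.064 (SE, adjusted P = 0.216). It had 8.26, 8.41, 8.66, 8.59 and 8.69 at 25 and 8.03, 8.22, 8.34, 8.34 and 8.45 at 75 mg/kg/day, with the 3 arrays on shared slides again below their slide's arrays at 25. Without replicate 1 at 75 mg/kg/day its difference was -0.11. The brightest members, let-7f and let-7a, had mean log2 signals of 9.63 ± 0.31 and 9.54 ± 0.17 in the low-dose livers and of 9.64 ± 0.35 and 9.49 ± 0.10 in the high-dose livers (SD, n = 5 each). The number of members with estimates below 0 was 7 with quantile normalisation, 6 with the processed signal, 4 with array medians centred and 3 with either the total gene signal or the values that the authors deposited. The total gene signal moved the median of all miRNAs to 0.17. The family as a whole thus had no direction that held under every scaling. let-7b, let-7c and let-7e were below 0, and let-7f and miR-98 above 0, in each of the 6.

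The location of the hairpins was set beside these values. let-7c is made from a hairpin on chromosome 15 (Mirlet7c-2, chr15:85706616-85706637) and another on chromosome 16 (Mirlet7c-1, chr16:77599672-77599693). The chromosome 15 copy lies 709 bases from let-7b, whose estimate was also negative. The chromosome 16 copy lies 732 bases from miR-99a, whose log2 difference was 0.019 ± 0.046 (SE, adjusted P = 0.882) and changed sign with quantile normalisation. The array cannot tell which hairpin a mature let-7c came from.

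**Figure D3:**
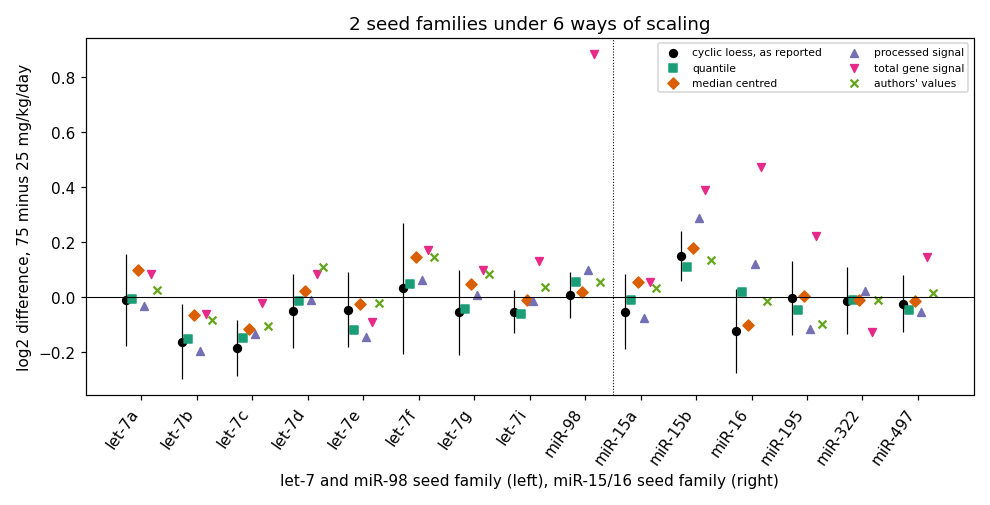
Log2 difference between 75 and 25 mg/kg/day (vertical axis) of the 9 let-7 and miR-98 family members and the 6 miR-15/16 family members under 6 ways of scaling, with 95% intervals for the values reported (black). let-7b, let-7c and let-7e lie below 0, and let-7f, miR-98 and miR-15b above 0, under each scaling, while the other members cross 0.

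The other miRNAs with an unadjusted P under 0.05 were few and small. There were 9 in all, counting miR-34a and let-7c (13% of the 69), of which 2 were higher (2.9%) and 7 lower (10.1%) at 75 mg/kg/day. miR-15b, a member of a family that represses cyclins and Bcl2, was the second that was higher. Its log2 signals were 6.63, 6.78, 7.23, 7.10 and 7.15 at 25 and 6.88, 6.81, 7.30, 7.19 and 7.35 at 75 mg/kg/day. The groups overlapped, with the slide 1 arrays lowest in both, but the 3 arrays on shared slides lay above the arrays at 25 on their slide. The log2 difference was 0.15 ± 0.043 (SE), with an adjusted P of 0.0778. It passed the threshold with the total gene signal (0.39), without replicate 2 at 25 (0.18) and with replicate 4 at 75 mg/kg/day left out (0.16).

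The sign of miR-15b was not shared by its relatives in the reported scaling. Among the 6 tested members of the miR-15/16 seed family, the other 5 had estimates below 0, the lowest at -0.12, and 0 of the 6 passed the threshold. Estimates below 0 were common, with 46 among all 68 mouse miRNAs. The number of members below 0 was 4 with quantile normalisation, 3 with array medians centred, the processed signal or the values that the authors deposited, and 1 with the total gene signal, whereas miR-15b was above 0 in each. miR-16, made from a hairpin 143 bases away on chromosome 3 (and from another on chromosome 14), had a log2 difference of -0.12 ± 0.071 (SE, adjusted P = 0.441). That estimate turned to 0.019 with quantile normalisation and to 0.12 with the processed signal, and it was -0.035 with replicate 1 at 25 mg/kg/day left out. miR-16 was present on 3 of 5 arrays at 25 and 5 of 5 at 75 mg/kg/day. The brightest member, miR-15a, had 8.86 ± 0.29 at 25 and 8.87 ± 0.43 at 75 mg/kg/day (SD, n = 5 each).

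The 6 other miRNAs with an unadjusted P under 0.05 had lower estimates at 75 mg/kg/day that missed the threshold. miR-10a, encoded in a Hox gene cluster, gave -0.16 ± 0.053 (SE, adjusted P = 0.117), with signals from 6.58 to 7.01 at 25 and from 6.55 to 6.85 at 75 mg/kg/day. It passed the threshold with replicate 1 at 25 mg/kg/day left out (-0.21, adjusted P = 0.0127) and without replicates 1 and 4 at that dose (-0.21, adjusted P = 0.0245). miR-199a-3p, which is enriched in mesenchymal cells such as stellate cells, gave -0.12 ± 0.042 (SE, adjusted P = 0.117). Its signals ran from 6.46 to 6.58 at 25 and from 6.28 to 6.50 at 75 mg/kg/day, and 4 of the 5 arrays at 75 lay below all at 25. miR-365 gave -0.12 ± 0.039 (SE, adjusted P = 0.117) and passed with replicate 1 at 25 mg/kg/day left out (-0.14, adjusted P = 0.0328). Besides let-7b, miR-101b gave -0.12 ± 0.050 and miR-27b gave -0.098 ± 0.042 (SE, both adjusted P = 0.273). These last 2 turned positive with quantile normalisation (0.018 and 0.053), with the processed signal and with the total gene signal. miR-101b gave -0.074 without replicate 5 at 75, and miR-27b -0.049 without replicate 1 at 25 mg/kg/day. miR-24, which lies 491 bases from miR-27b on chromosome 13, had a difference of 0.018 ± 0.040 (SE).

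Each of the 9 had the same sign within slide 1 and within slide 3. Among all 68 mouse miRNAs, 32 (47.1%) had. The choice by P in a model with slide favours such miRNAs, so the 9 are a description.

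**Figure D4:**
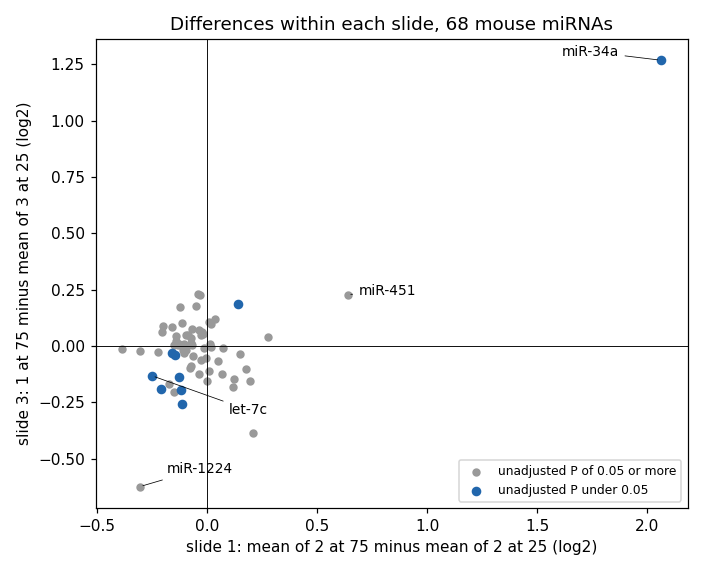
Log2 difference between 75 and 25 mg/kg/day within slide 1 (horizontal axis, 2 arrays against 2) and within slide 3 (vertical axis, 1 array against 3) for 68 mouse miRNAs, with the 9 with unadjusted P under 0.05 in blue. miR-34a stands at 2.06 and 1.27, and of all 68, 32 have the same sign on both axes.

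The hepatocyte markers matched the label of the tissue. miR-122, the defining miRNA of hepatocytes, was the brightest mouse miRNA, with a log2 signal of 13.66 ± 0.17 at 25 and 13.61 ± 0.14 at 75 mg/kg/day (SD, n = 5 each). Its difference was -0.047 ± 0.089 (SE, adjusted P = 0.855), and the sign turned under 6 of 16 alternative fits. The next brightest were miR-720, with 11.29 ± 0.14 and 11.36 ± 0.11, miR-22, with 10.53 to 10.90 and 10.40 to 10.67, let-7f, given above, and miR-21, with 9.54 ± 0.75 and 9.51 ± 0.87, at 25 and 75 mg/kg/day in turn (SD, n = 5 each). Of these, miR-720 is a tRNA-derived fragment. The 3 of 3 hepatocyte markers (miR-122, miR-192 and miR-194) summed to a linear normalised signal between 11174 and 14996 at 25 and between 11632 and 15169 at 75 mg/kg/day, and 0 passed the threshold.

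Markers of other cells in liver were mostly dim. Of 3 red blood cell markers, miR-451 and miR-144 were tested and 0 passed. Their summed signal ran from 402 to 738 at 25 and from 280 to 1121 at 75 mg/kg/day. miR-451 varied widely among the livers at 75 mg/kg/day, from 7.74 to 9.96 on the log2 scale (SD 0.83, against 0.40 at 25), and its difference of 0.20 ± 0.27 (SE, adjusted P = 0.786) became -0.020 without replicate 1 at 75 mg/kg/day. Of 7 leucocyte markers only miR-223 was tested, with a signal between 78.3 and 81.7 at 25 and between 74.7 and 79.4 at 75 mg/kg/day. Of 2 endothelial markers miR-126-3p was tested (155 to 218, and 154 to 210), and of 5 mesenchymal markers miR-199a-3p (88.1 to 95.5, and 77.5 to 90.7). The ranges overlapped for each of these marker lists.

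Of 20 miRNAs with a reported link to p53, listed from general knowledge, 19 names were on the array and 11 were tested. In this list 1 rose (miR-34a), 0 fell and 10 did not pass, and the median difference was -0.025 beside -0.034 for all mouse miRNAs. Over all 69 miRNAs tested, 1 rose (1.45%) and 1 fell (1.45%). Its brightest member was miR-22, with a difference of -0.17 ± 0.092 (SE, adjusted P = 0.423), or -0.079 without replicate 1 at 75 mg/kg/day. Among 13 miRNAs of the proliferation-linked clusters miR-17-92, miR-106a-363 and miR-106b-25, 5 were tested and 0 passed, with a median of 0.0045 and a range from -0.030 to 0.076.

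The largest estimates outside miR-34a came from variable miRNAs or missed the threshold. miR-1224 had the lowest, -0.36 ± 0.28 (SE, adjusted P = 0.581), with 6.87, 7.12, 9.02, 7.39 and 7.32 at 25 mg/kg/day, so that a single array, replicate 3, stood far above the others. Without it the difference was -0.096. miR-26a and miR-26b, which share a seed, gave -0.20 ± 0.097 (adjusted P = 0.346) and -0.19 ± 0.088 (SE, adjusted P = 0.321). The signal of miR-26a at 25 mg/kg/day was 7.18 on 1 slide 1 array and between 6.50 and 6.66 on the other 4, and without that array, replicate 1, its difference was -0.049. miR-29c gave 0.11 ± 0.062 (SE, adjusted P = 0.423) and miR-19b 0.076 ± 0.063 (SE, adjusted P = 0.625), both with a negative difference within slide 1. miR-29c passed with the total gene signal (0.33, adjusted P = 0.0458) and with replicate 1 at 25 mg/kg/day left out (0.18, adjusted P = 0.0464).

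Where presence on the array differed between the doses, the name was present at 75 but not at 25 mg/kg/day. Of the 69 names tested, 55 were present at both doses, 9 at 75 but not 25 mg/kg/day, 0 at 25 but not 75, and 5 at neither. The 9 were miR-7a, miR-16, miR-27b, miR-28, miR-98, miR-139-5p, miR-144, miR-223 and miR-702. Replicates 4 and 5 at 25 mg/kg/day, the arrays with the fewest names detected (57 and 70), each lacked 9 of the 9, and 0 of the 9 passed the threshold for a difference in signal. Of the 498 mouse names not tested, 435 were never well above background at either dose, and a difference in these was not detectable here. The median SD over 68 mouse miRNAs was 0.15 among the arrays at either dose.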

How the data were processed

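The authors labelled total RNA with cyanine 3, hybridised it to 1-colour Agilent mouse miRNA arrays and extracted the spots with Agilent Feature Extraction 10.7.3.1, per the labels. What the authors deposited per array are linear intensities of single spots, not normalised between arrays. A table of log2 values that the authors deposited per miRNA name was used as an alternative. Its column medians lay between 5.74 and 5.76, and the study's methods describe cyclic loess normalisation. Following the methods of the study, the median signal without background subtraction was normalised by cyclic loess over 11540 non-control spots (limma 3.58.1, R 4.3.3), and slide was a block. Outlier spots were removed, and the median over spots and the mean over present probes were taken. A probe was present on an array if a share of 0.5 of its spots was well above background, and was kept if present on a share of 0.8 of the arrays of any dose group, which left 112 probes of 69 names (68 mouse and 1 viral; 498 mouse names were not tested). Linear models (lmFit, eBayes) on all 18 arrays gave the difference between 75 and 25 mg/kg/day, tested two-sided with Benjamini-Hochberg adjustment at 0.05. The fit was tested on simulated data. The number of arrays limits the precision. Labels carry no replicate numbers, so these only name arrays in accession order, and P-values measure the spread between arrays.

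The miRNAs, lists and tests were chosen with earlier results of these data known. Named were miR-34a, let-7c and miR-122, all with P under 0.05, the 5 highest and 5 lowest differences, the 5 brightest, the 3 most variable, the brightest members of each list, and tested miRNAs within 10 kb of one with P under 0.05.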

Additional observations from a re-analysis of the deposited data

Results flagged for a closer look

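The values of each miRNA whose difference is given were checked in both dose groups for 1 array apart from the other 4. The measure was its gap to the nearest array over the range of the group, without adjustment for slide. Of the 40 groups, 4 passed the critical value of 0.71, which chance passes in about 1 group in 20. That rate cannot be set against these groups, since the miRNAs included the 3 most variable and those with the largest differences. miR-1224 at 25 mg/kg/day had replicate 3 at 9.02, with the nearest at 7.39 (0.757). miR-26a at 25 mg/kg/day had replicate 1 at 7.18, with the nearest at 6.66 (0.766). miR-22 at 75 mg/kg/day had replicate 1 at 10.40, with the nearest at 10.59 (0.733). miR-24 at 75 mg/kg/day had replicate 2 at 7.20, with the nearest at 7.29 (0.714). None of these 4 miRNAs passed the threshold for a difference between the doses. Neither miR-34a nor let-7c had an array apart by this measure, but offsets between slides can widen the range and hide such an array.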

How the results depend on the processing

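No paired analysis was possible because each array held RNA of a different mouse given 1 dose, and the labels carry no replicate numbers. miR-34a kept its direction and its adjusted P under 0.05 in all 15 alternative fits that could measure it (1.45 to 3.47 on the log2 scale, adjusted P at most 0.000149) and in the 18 fits without 1 array (1.51 to 1.75); restricting the probes to those present on all arrays left it out, so 0 of 42 miRNAs passed there, with 7 at an unadjusted P under 0.05. Within slides, without a test, it gave 2.06 (slide 1) and 1.27 (slide 3). The count was 1 instead of 2 with quantile normalisation, array medians centred, no filter on dim probes, the processed signal, the values the authors deposited (also over all 574 names, an alternative added after the data were seen), no slide, slide as a random block and the 10 arrays alone; it was 3 with the total gene signal and without the arrays at 25 mg/kg/day with the most and the fewest names detected, and ran from 1 to 7 without 1 array. let-7c kept its direction but not the threshold with quantile normalisation (-0.15), array medians centred (-0.12), no filter (-0.19), probes present on all arrays (-0.15), the processed signal (-0.13), the total gene signal (-0.023), the values the authors deposited (-0.11, tested over 69 or all names), no slide (-0.20), slide as a random block (-0.19, adjusted P = 0.0754) and the 10 arrays alone (-0.20, adjusted P = 0.153); without 1 array it ran from -0.21 to -0.14. It passed with normexp (adjusted P = 0.0414), outlier spots kept (0.0364), probes present at 25 or 75 mg/kg/day (0.0452), the 15 dosed arrays (0.0480) and, added after the data were seen, without the arrays at 25 mg/kg/day with the most and the fewest names detected (0.0245). The causes were not tested.

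Signs turned for these differences. Quantile normalisation gave miR-101b 0.018, miR-27b 0.053, miR-122 0.00041, miR-99a -0.032 and miR-16 0.019. Array medians gave miR-122 0.12, normexp miR-122 0.0073, and no filter miR-19b -0.023 and miR-99a -0.021. The processed signal gave miR-101b 0.085, miR-27b 0.20 and miR-16 0.12. The total gene signal gave miR-365 0.0025, miR-101b 0.25, miR-27b 0.61, miR-26a 0.17, miR-122 0.081 and miR-16 0.47, beside a median over all miRNAs of 0.17. The values the authors deposited gave miR-122 0.016 over either set of names. Slide 1 alone gave miR-29c -0.042, miR-19b -0.051, miR-99a -0.020 and miR-24 -0.024. Without 1 array, miR-122 ran from -0.12 to 0.012, miR-451 from -0.020 to 0.33 and miR-24 from -0.0045 to 0.051.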
